A study of Mus musculus with 44 samples.

Results

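Of the 44 libraries of the series, 6 were made from extraembryonic cells of the E13.5 intestine, 3 from the colon (exColon) and 3 from the small intestine (exSI), and the comparison of these organs within the extraembryonic lineage is described here across all protein-coding genes. The libraries were chosen by their titles, without use of any measured value. The embryos were two-colour chimaeras in which mCherry+ morulae of the CD1/G4 strain were combined with GFP+ G4 mouse embryonic stem cells and then carried by pseudo-pregnant CD1 females, so that an mCherry+ cell is of extraembryonic origin and a GFP+ cell is of embryonic origin. In all 6 libraries the mCherry+ cells carried the Trp53 KO, introduced by Cas9 and guide RNAs in the zygote that supplied the extraembryonic lineage. Wild-type mCherry+ intestine of this stage was not analysed here, so that the differences described hold for p53-deficient cells. The intestine of a single embryo was cut into small intestine and colon, and EPCAM+ mCherry+ cells were sorted into small pools. The GFP+ counterparts of E13.5 (emColon and emSI, 3 libraries each) were labelled WT, so lineage, genotype, strain and Y-linked expression change together between the ex and em groups and cannot be told apart. The methods describe the GFP+ line as male. The Y-linked gene Eif2s3y was at 0 in the 6 em libraries and at 40.51 TPM or more in the 6 ex libraries, and Uty was at 11.5 to 61.2 TPM in ex and at most 3.32 TPM in em. The earlier gut libraries, exHindgut and exMidgut of E9.5, were mCherry+, labelled WT and made from pooled embryos, with 4 libraries each, so stage and genotype cannot be told apart there. The labels do not say which colon and which small intestine came from the same embryo, and the p-values below therefore describe the spread between these libraries as if they were independent.

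The gut tube is patterned along its anterior to posterior axis before its epithelium differentiates. CDX factors and the nested expression of Hox genes mark posterior positions, while GATA4 and GATA5 mark the small intestine. In the foetal small intestine the first enterocytes begin to make fatty acid binding proteins and apolipoproteins, which take up and export dietary lipid. Cells of the visceral endoderm, the extraembryonic epithelium that contributes to the gut, are known for secreting serum proteins such as alpha-fetoprotein.

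The levels are given as TPM, a transcript abundance scaled to the same total in every library, summed over all transcripts of a gene. A difference is that of the mean log2(TPM + 1), and it understates the change of genes with low values. A gene was called when its Benjamini-Hochberg adjusted p from limma was under 0.05 and its log2 difference over 1 in size. The 6 libraries held between 4.907 and 8.705 Gb of aligned bases, as estimated from coverage and FPKM, and between 11345 and 12170 genes above 1 TPM. The mCherry transcript lay between 2624 and 8667 TPM in all 6 and was listed at 0 in the em libraries. The EGFP transcript was at 0 in exColon and at 2.38, 5.67 and 0 TPM in exSI, against 440.1 to 650.2 TPM in the em libraries. Trp53 transcripts were present at 42.5, 124 and 122 TPM in exColon and at 33.4, 167 and 117 TPM in exSI, which does not check the knockout since small edits can leave the transcript in place. All 10 genes of a gut endoderm list, such as Epcam and Krt8, were expressed in both organs, with summed levels of 4060 to 5478 TPM in exColon and 5300 to 6389 TPM in exSI. Markers of endothelium summed to at most 0.258 TPM in these 6 libraries and those of blood to at most 11 TPM. A mesenchyme list summed to between 5.90 and 67.1 TPM, with Vim at 4.65 to 59.5 TPM as its most abundant member, while Col1a1 was at 0 in all 6. The library exColon 1 stood apart for surface ectoderm genes, with a sum of 237 TPM against 30.6 to 38.1 TPM in the other exColon libraries. This sum included Krt15 at 147 TPM and Krt5 at 16.2 TPM. Sox2, a member of the stomach list and not of this one, was at 37.1 TPM in exColon 1. The library exColon 1 was also the highest for mesothelium genes, with 67.5 TPM, mostly from Msln at 54.9 TPM. The other exColon libraries held 4.62 and 9.14 TPM of these, and exSI 2.65 to 27.4 TPM. A germ cell list summed to 36.8 to 47.7 TPM in exColon and 10.9 to 29.6 TPM in exSI, with Kit, which other cells also express, at 29.7 to 45.2 TPM and 1.58 to 14.9 TPM.

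Between exColon and exSI, 79 of 11405 genes were called (0.693%), of which 25 were higher in exColon (0.219%) and 54 were lower (0.473%). An unadjusted p under 0.05 was found for 1221 genes. In all 79 called genes the 3 exColon values lay entirely above or below the 3 exSI values. The thresholds of the call, set on these same values, nearly ensure this, so it adds no support to the calls. Over all genes tested it held for 15.8%. The median difference over all genes tested was 0.08. Of the called genes, 14 exceeded 1 TPM in the 3 exSI libraries and in no exColon library, and 9 in the 3 exColon libraries and in no exSI library. Such genes passed the filter on low values through a single group. With 1 library left out, between 7 (without exSI 2) and 71 genes (without exColon 2) were called, and 6 genes, Plac8, Fabp1, Lgals4, Postn, Ssbp2 and Ppp2r2b, were called whichever library was left out. Each of the other 73 calls was lost or could not be fitted without at least 1 library. For 12 of them no fit with a library left out gave a call, namely Akr1d1, Entpd3, Fstl4, Limch1, Krt23, Il17rc, Cdkn1a, Dmbt1, Cd9, Nepn, 9130008F23Rik and C130026I21Rik.

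The promoters of 4 genes that were lower in exColon are shown first, because these genes, a secreted Wnt inhibitor and 3 proteins of the maturing absorptive epithelium, carried large differences and hold letters that match intestinal factors. Each sequence is the 300 bases from 250 before to 50 after a RefSeq transcription start on GRCm38.p6, written 5′ to 3′ on the strand of the gene, with the searched motifs in capitals. For CDX the letters searched on both strands were TTTATT, with the variant TTTACG and the further variant TTTATG. The receptor HNF4 was searched as AAAGTCC, the homeodomain factor HNF1 as TTAATNA, the forkhead factors of the FOXA family as TGTTTAC, and the zinc finger factors of the GATA family by the core sequence AGATAA. Matches can overlap, as in Fabp1, where the capitals of the second stretch hold a pair of CDX matches. Sfrp5 lies at chr19:42202203-42202502 on the minus strand and holds 2 GATA matches. Fabp1 lies at chr6:71199629-71199928 on the plus strand and holds 3 CDX matches. Fabp2 lies at chr3:122894822-122895121 on the plus strand with 1 CDX match. Lgals2 lies at chr15:78855480-78855779 on the minus strand with 1 match each of CDX, GATA and HNF4.
Sfrp5: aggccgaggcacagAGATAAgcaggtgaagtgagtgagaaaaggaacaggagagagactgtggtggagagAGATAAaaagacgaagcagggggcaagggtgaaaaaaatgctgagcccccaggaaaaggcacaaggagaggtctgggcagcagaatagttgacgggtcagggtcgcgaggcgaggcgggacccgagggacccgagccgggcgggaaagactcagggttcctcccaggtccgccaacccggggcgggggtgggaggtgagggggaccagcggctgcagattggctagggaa
Fabp1: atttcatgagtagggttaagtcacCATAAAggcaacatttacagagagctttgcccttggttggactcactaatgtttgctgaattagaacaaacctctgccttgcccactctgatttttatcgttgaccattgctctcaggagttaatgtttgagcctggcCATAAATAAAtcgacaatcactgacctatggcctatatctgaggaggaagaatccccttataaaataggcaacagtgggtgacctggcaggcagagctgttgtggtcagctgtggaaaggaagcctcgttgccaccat
Fabp2: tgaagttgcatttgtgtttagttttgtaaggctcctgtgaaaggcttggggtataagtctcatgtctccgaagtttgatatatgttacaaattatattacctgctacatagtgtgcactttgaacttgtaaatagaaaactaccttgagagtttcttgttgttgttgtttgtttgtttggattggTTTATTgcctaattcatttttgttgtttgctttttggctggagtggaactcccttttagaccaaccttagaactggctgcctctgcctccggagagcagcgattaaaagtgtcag
Lgals2: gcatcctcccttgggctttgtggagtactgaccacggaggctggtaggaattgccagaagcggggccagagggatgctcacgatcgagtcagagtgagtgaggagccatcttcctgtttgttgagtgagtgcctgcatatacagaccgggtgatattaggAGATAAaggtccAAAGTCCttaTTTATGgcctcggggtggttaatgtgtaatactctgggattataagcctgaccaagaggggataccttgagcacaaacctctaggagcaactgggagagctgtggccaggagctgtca

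A promoter entry was found for 61 of the 79 called genes. Of the 50 promoters of the genes lower in exColon, 38.0% held the CDX letters, 14.0% the GATA letters, 8.0% the HNF4 letters, 20% the HNF1 letters and 6.0% the FOXA letters. Over all 32851 promoters of the table the shares were 29.9%, 11.2%, 4.21%, 10.9% and 3.65%. Among the 26 promoters of genes higher in exColon they were 26.9%, 3.85%, 3.85%, 7.69% and 3.85%. These shares are descriptions of letters, several genes have more than 1 promoter, and no test was made on them.

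**Figure D1:**
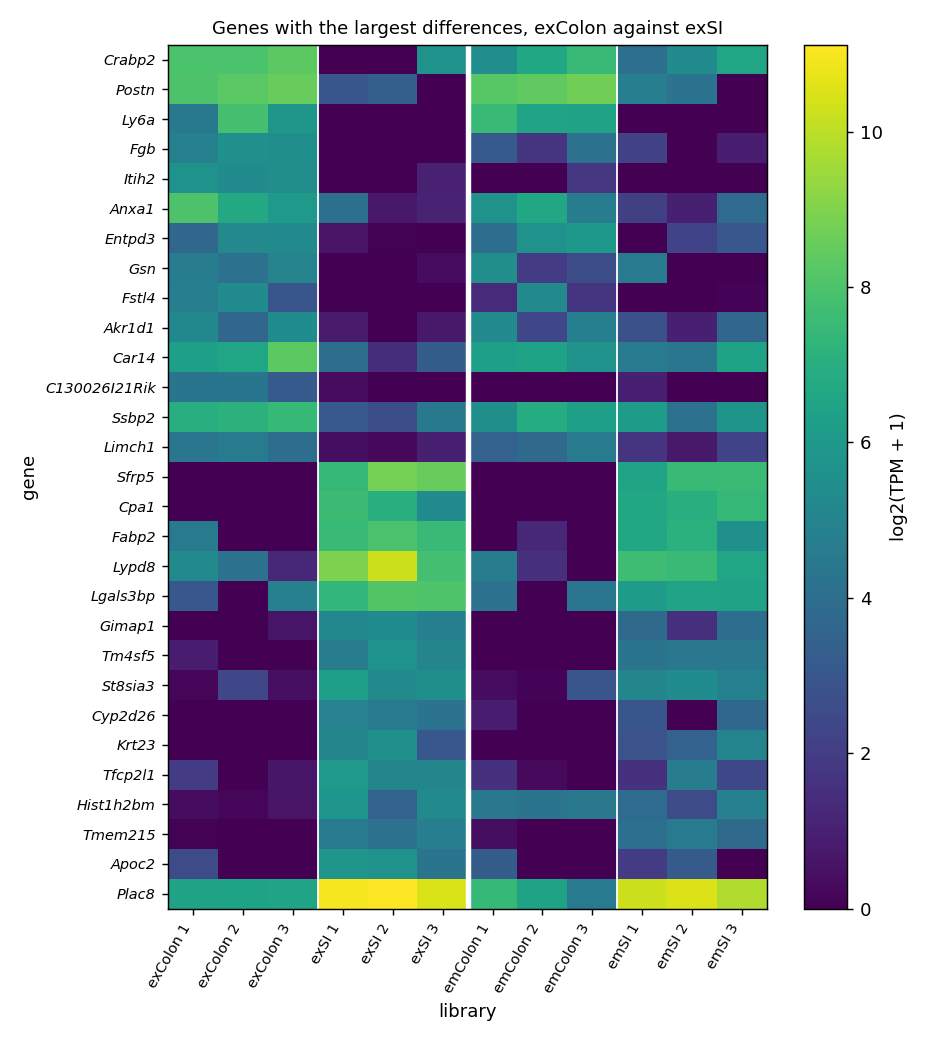
Level of 14 of the 15 genes with the largest positive difference and of the 15 with the largest negative difference between exColon and exSI, as log2(TPM + 1) by colour, in the 12 E13.5 libraries in columns. The thick white line separates the ex from the em libraries and thin lines separate organs. Sfrp5, Cpa1, Cyp2d26 and Krt23 are dark (0 TPM) in all 3 exColon libraries.

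A list of regional and endodermal transcription factors had 35 tested members, with a median difference of -0.41. Of these, 1 was called higher in exColon and 4 lower, beside 0.219% and 0.473% of all genes tested, and 30 were not called. Gata5, a zinc finger factor of the small intestine, was at 0, 0 and 0.145 TPM in exColon and at 23.7, 19.2 and 12.3 TPM in exSI (-4.17 ± 0.75, SE, adjusted p = 0.03, n = 3 per group). The call of Gata5 was lost without exColon 1 (adjusted p = 0.073) or without exColon 3 (adjusted p = 0.062), and without any of the exSI libraries the gene did not pass the filter on low values. Onecut2, a homeodomain factor of foregut and duodenal endoderm, was at 1.85, 0.918 and 3.83 TPM in exColon against 39.6, 50.3 and 31.0 TPM in exSI (-3.77 ± 0.68, adjusted p = 0.03). Tfcp2l1, a grainyhead-like factor, was at 2.93, 0 and 0.573 TPM against 63.1, 33.4 and 33.2 TPM (-4.53 ± 0.77, adjusted p = 0.027). Each of these 3 factors was thus at under 4 TPM in every exColon library and above 12 TPM in every exSI library. Elf3, an epithelial ETS factor, was expressed in both organs, at 65.5, 60.6 and 73.1 TPM in exColon and 256, 411 and 261 TPM in exSI (-2.17 ± 0.28, adjusted p = 0.0073). Gata4, the paralogue of Gata5, did not pass the threshold, with 10.1, 0 and 3.89 TPM in exColon and 39.6, 67.8 and 74.1 TPM in exSI (-3.97 ± 0.83, adjusted p = 0.058), although the groups did not overlap. Cdx2, the main caudal factor of the intestine, was at 132, 179 and 290.3 TPM in exColon and 175, 212 and 240.5 TPM in exSI, and these values overlapped (-0.12 ± 0.30, adjusted p = 0.93). Isx, an intestinal homeobox factor, was at 85.1, 7.71 and 53 TPM in exColon against 191, 213 and 231 TPM in exSI (-2.62 ± 0.65, adjusted p = 0.11).

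Of the 39 Hox cluster genes, 15 passed the filter on low values and none was called, beside 0.693% of all genes tested. The median difference of the 15 was 0.53. Of the 15, 4 had groups that did not overlap, against 15.8% of all genes. These 4, Hoxb7 and 3 neighbours of the HoxA cluster, had higher values in exColon. Hoxa7 was at 13.4, 13.3 and 4.63 TPM in exColon and listed at 0 in the 3 exSI libraries (adjusted p = 0.082). Hoxa9 was at 9.02, 2.90 and 17.8 TPM in exColon and at 0 in exSI (adjusted p = 0.13). Hoxa10 was at 15.4, 73.0 and 29.8 TPM in exColon and at 0.0505, 0 and 14.1 TPM in exSI (3.73 ± 1.07, adjusted p = 0.18). The library exSI 3 therefore came close to the lowest exColon library for Hoxa10. Hoxb7 was at 21.0, 5.51 and 26.9 TPM against 0, 0 and 1.34 TPM (3.58 ± 0.86, adjusted p = 0.095). Hoxb13, the most posterior HoxB gene, was scattered, at 0, 12.9 and 0 TPM in exColon and 9.51, 0 and 8.31 TPM in exSI. The 16 genes of Hox groups 9 to 13 summed to 29.8, 117 and 68.2 TPM in exColon and to 12.8, 5.66 and 29.5 TPM in exSI, so the lowest exColon library was near the highest exSI library. In the em libraries the same sum was 80.6, 140 and 139 TPM in colon and 0, 0.707 and 0 TPM in small intestine. The 23 genes of groups 1 to 8 summed to 67.5, 51.4 and 116 TPM in exColon and to 25.7, 9.87 and 46.9 TPM in exSI. A higher sum in exColon was thus not particular to the posterior groups. In emColon the sum of groups 1 to 8 was 99.8, 113 and 132 TPM, and in emSI 135, 24.1 and 12.2 TPM. With the same test, Hoxa10, Hoxb9 and Hoxb13 were called in emColon against emSI, at 4.81 ± 0.74 (adjusted p = 0.022), 4.89 ± 0.72 (adjusted p = 0.017) and 4.63 ± 0.69 (adjusted p = 0.017). Hoxb13 was at 24.0, 22.4 and 24.7 TPM in emColon and at 0 in emSI. The organ difference of Hoxb13 did not differ by lineage past the threshold (interaction -5.56 ± 1.49, adjusted p = 0.35), and the same was true of Hoxb9 (-3.26 ± 1.17, adjusted p = 0.47) and Hoxa10 (-1.08 ± 1.38, adjusted p = 0.89).

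**Figure D2:**
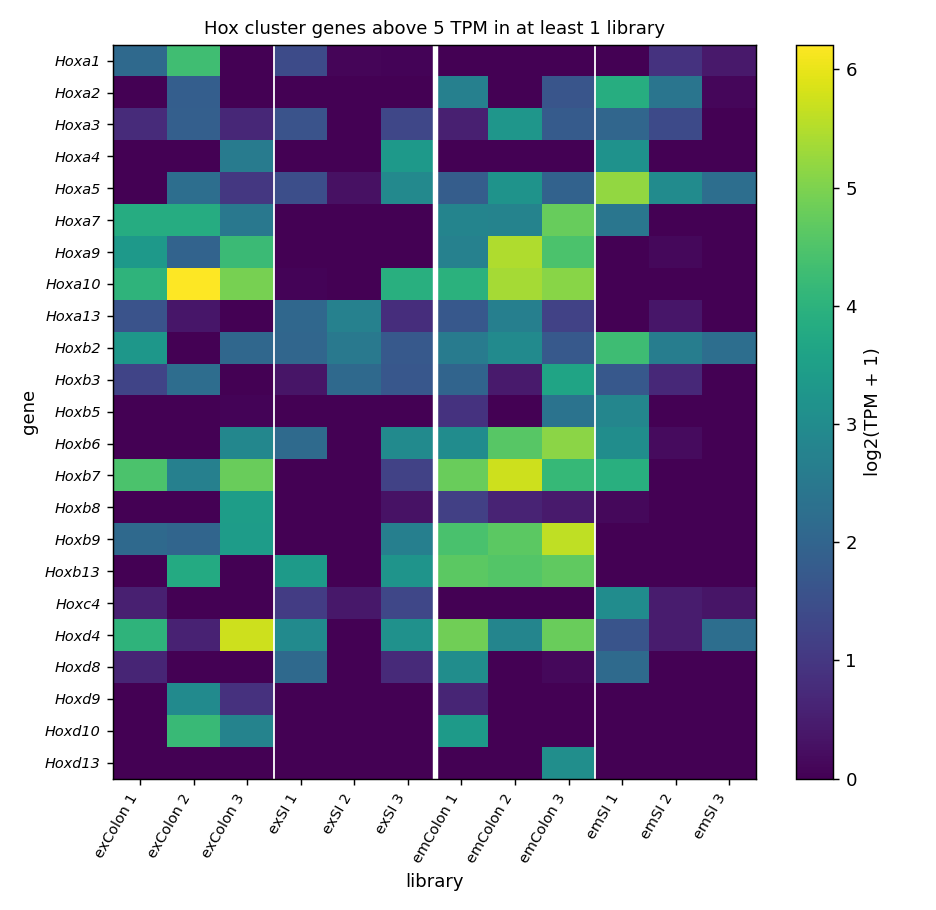
Level of the 23 Hox cluster genes above 5 TPM in at least 1 of the 12 E13.5 libraries, as log2(TPM + 1) by colour, in the order of the clusters. Hoxa7, Hoxa9 and Hoxa10 are present in the 3 exColon and 3 emColon libraries, and Hoxb13 is even in emColon (22.4 to 24.7 TPM) but scattered over exColon and exSI.

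Genes of absorption were among those lower in the extraembryonic colon. In a list of enterocyte and absorption genes, 30 members were tested, 4 were called lower in exColon and none higher, 27 had a difference below 0, and 15 had groups that did not overlap. Over all 11405 genes tested, 0.473% were called lower and 0.219% higher, 5140 had a difference below 0 and 15.8% had groups that did not overlap. The median difference was -1.37, beside 0.08 over all genes. Fabp1, the liver-type fatty acid binding protein, was at 20.9, 21.7 and 24.4 TPM in exColon and at 385, 1033 and 289 TPM in exSI (-4.39 ± 0.42, adjusted p = 0.00086). The 3 exColon libraries agreed closely, while the exSI libraries ranged widely at a far higher level. Fabp2, the intestinal form, was at 23.1, 0 and 0 TPM in exColon and at 177, 239 and 187 TPM in exSI (-6.12 ± 1.00, adjusted p = 0.024), and its call was lost without any 1 of the exSI libraries. Apoc2, a cofactor of lipoprotein lipase, was at 4.84, 0 and 0 TPM against 55.3, 50.7 and 18.5 TPM (-4.42 ± 0.88, adjusted p = 0.047). The call of Apoc2 held without exColon 1 and was lost without any other library, and it was also lost with all gene types (adjusted p = 0.053), without the variance trend (adjusted p = 0.1) and in the fit over 12 libraries (adjusted p = 0.069). Among abundant members that were not called, Apoa1 was at 479, 413 and 1616 TPM in exColon and 1432, 1224 and 2502 TPM in exSI (-1.26 ± 0.43, adjusted p = 0.29), and Amn, a subunit of the cubilin receptor, was at 54.8, 38.5 and 80.2 TPM against 131, 199 and 175 TPM (-1.57, adjusted p = 0.065). The overlap of Apoa1 came from exColon 3, which lay above the exSI libraries 1 and 2.

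Of 14 tested colonocyte genes none was called higher in exColon and 2 were called lower, beside 0.219% and 0.473% of all genes tested. The median difference of these 14 genes was 0.18. Lypd8, a surface protein of the mature colonic epithelium, was at 39.5, 16.7 and 1.37 TPM in exColon and 488, 1232 and 223 TPM in exSI (-5.43 ± 0.87, adjusted p = 0.024). In these p53-deficient extraembryonic cells Lypd8 was thus higher in the small intestine, with no overlap between the organs. Among other settings, its call was lost without exSI 1 (adjusted p = 0.11) or without exSI 2 (adjusted p = 0.12). Of 8 goblet and secretory progenitor genes none was called (median -1.58), with Muc13, a transmembrane mucin, at 17.2, 6 and 55 TPM in exColon and 150.3, 164 and 125 TPM in exSI (-2.93 ± 0.61, adjusted p = 0.056). Tff3, a goblet cell peptide, was at 304, 667 and 664 TPM against 788, 1878 and 944 TPM (-1.12 ± 0.35, adjusted p = 0.24). None of 6 tested enteroendocrine genes was called (median -1.19), beside 0.693% of all genes tested.

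The largest difference of all was that of Sfrp5, a secreted inhibitor of Wnt ligands located at chr19:42197971-42202252 (mm10), whose promoter is shown above. It was listed at 0 in the 3 exColon libraries and lay at 169, 438 and 372 TPM in exSI (adjusted p = 5.1e-05). Sfrp5 was the sole call among 25 tested Wnt pathway genes, whose median difference was 0.09. The Wnt receptor component Lgr4 was at 94.2, 87.2 and 87.7 TPM in exColon and 116, 109.7 and 68.0 TPM in exSI (-0.09 ± 0.31, adjusted p = 0.96), with overlapping groups. No member was called among 20 Hedgehog, BMP and TGFb genes (median 0.28), 12 Notch genes (0.06), 33 FGF, Eph and guidance genes (0.55) or 19 claudins and cadherins (-0.21). Over all genes tested 0.693% were called, so lists this short can hold no call by their size alone. In the FGF, Eph and guidance list 26 differences were above 0 and 7 below, beside 6265 and 5140 over all genes tested. Of 12 tested retinoic acid genes 1 was called. This was Crabp2, which carries retinoic acid to its nuclear receptors, at 246, 250 and 316 TPM in exColon and 0, 0 and 49.9 TPM in exSI (6.19 ± 1.17, adjusted p = 0.036). The call held without exSI 3, the exSI library that expressed the gene, and was lost without any other library.

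Several further genes were strongly lower in exColon. Plac8, a small cysteine-rich protein at chr5:100553725-100572245, was at 85.0, 85.2 and 87.7 TPM in exColon and 1988, 2222 and 1430.1 TPM in exSI, a 21.3-fold difference on the TPM + 1 scale (-4.41 ± 0.22, adjusted p = 1.8e-06). It had the smallest adjusted p of all genes and was called under every alternative treatment of the data. Cpa1, the zymogen of a digestive carboxypeptidase of the pancreas, was at 0 in exColon and at 198, 126 and 40.5 TPM in exSI (adjusted p = 0.0032). Of the 11 genes in the pancreas marker list 4 were at 0 in all exSI libraries, and the list summed to 28.5 to 63.4 TPM in exColon and 54.2 to 243 TPM in exSI, with Pdx1 at 0, 10.9 and 0 TPM in exColon and 26.6, 3.68 and 4.81 TPM in exSI. The part of pancreatic cells in the difference of Cpa1 was not tested. A stomach list of 11 genes summed to 19.0 to 67.8 TPM in exColon and 107 to 171 TPM in exSI, where most came from Tff1. In exColon 1, the library with the sum of 67.8 TPM, Sox2 held the largest part. In sorted bulk cells, fewer cells of a type and less RNA per cell cannot be told apart.

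The called genes included 3 galectins, which are lectins that bind galactosides, and a galectin-binding protein. Lgals2, whose promoter is shown above, was at 538, 126 and 688 TPM in exColon and 2780.5, 4311 and 3096 TPM in exSI (-3.21 ± 0.48, adjusted p = 0.017). Lgals4 was at 96.1, 71.0 and 60.9 TPM against 469.9, 719.7 and 419 TPM (-2.79 ± 0.28, adjusted p = 0.0013), with the caution that it has a close paralogue. Lgals3bp, a secreted glycoprotein that binds galectin-3, was at 7.17, 0 and 27.9 TPM against 164, 278 and 262 TPM (-5.21 ± 0.92, adjusted p = 0.027). Lgals1 was instead higher in exColon, at 58.7, 68.3 and 58.2 TPM against 7.46, 4.32 and 10.5 TPM (2.96 ± 0.52, adjusted p = 0.027). Lgals2, Lgals4 and Lgals1 were grouped here after their values had been seen. The remaining genes among the 15 largest decreases included Gimap1, a GTPase better known from lymphocytes (0, 0 and 0.529 TPM against 35.7, 41.5 and 27.0 TPM, -4.93 ± 0.73, adjusted p = 0.016), and Tm4sf5, a tetraspan membrane protein (0.852, 0 and 0 TPM against 24.3, 51.3 and 32.6 TPM, -4.85 ± 0.75, adjusted p = 0.021). St8sia3, a sialyltransferase, differed by -4.70 ± 0.78 (adjusted p = 0.024), and Tmem215 by -4.49 ± 0.74 (adjusted p = 0.024). Cyp2d26, a cytochrome P450, was at 0 in exColon and 29.5, 22.8 and 18.0 TPM in exSI (adjusted p = 0.024), and Krt23, a keratin, was at 0 in exColon and 32.1, 46.9 and 7.2 TPM in exSI (adjusted p = 0.035, a call lost with any 1 library left out). The histone gene Hist1h2bm was at 0.304, 0.0983 and 0.487 TPM against 56.8, 10.2 and 38.0 TPM (-4.51 ± 0.83, adjusted p = 0.031), a value that is uncertain because histone genes share near-identical sequence.

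Of the genes of growth arrest and stress, Cdkn1a, Cdkn2b and Atf3 were lower in exColon in these p53-deficient cells. Cdkn1a, which encodes the cyclin-dependent kinase inhibitor p21 and is a standard p53 target, was at 92.4, 83.9 and 119 TPM in exColon and 236, 217 and 368 TPM in exSI (-1.44 ± 0.28, adjusted p = 0.045). It was the sole call among 24 tested p53 targets, whose median difference was 0.36, while 0.693% of all genes tested were called. Bax, a pro-apoptotic target, was at 373, 257 and 338 TPM in exColon and 312, 302 and 361 TPM in exSI, with overlapping groups (-0.02 ± 0.22, adjusted p = 0.99). Pmaip1, which encodes NOXA, was at 9.52, 0.132 and 0.335 TPM against 51.7, 19.5 and 28.1 TPM (-3.65 ± 0.93, adjusted p = 0.11). Cdkn2b, which encodes the inhibitor p15, was at 8.89, 24.1 and 6.15 TPM against 159, 195 and 72.3 TPM (-3.45 ± 0.55, adjusted p = 0.024) and was the sole call among 34 tested proliferation genes (median -0.02). Pcna, Birc5 and the other 31 were not called. Atf3, a stress-responsive factor, was at 8.56, 28.1 and 3.92 TPM against 214, 97.3 and 93.5 TPM (-3.50 ± 0.62, adjusted p = 0.027) and was the sole call among 13 immediate early genes (median -0.60), which can also respond to dissociation. The call of Cdkn1a was lost when any single library was left out, with the difference staying between -1.59 and -1.21 over all alternatives. It was also lost with a pseudocount of 0.1 (adjusted p = 0.078), no filter (0.21), no variance trend (0.23) and in the fit over 12 libraries (0.65). Among other settings, the call of Atf3 was lost without the trend (adjusted p = 0.13), in the fit over 12 libraries (0.22) and without any 1 exSI library.

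**Figure D3:**
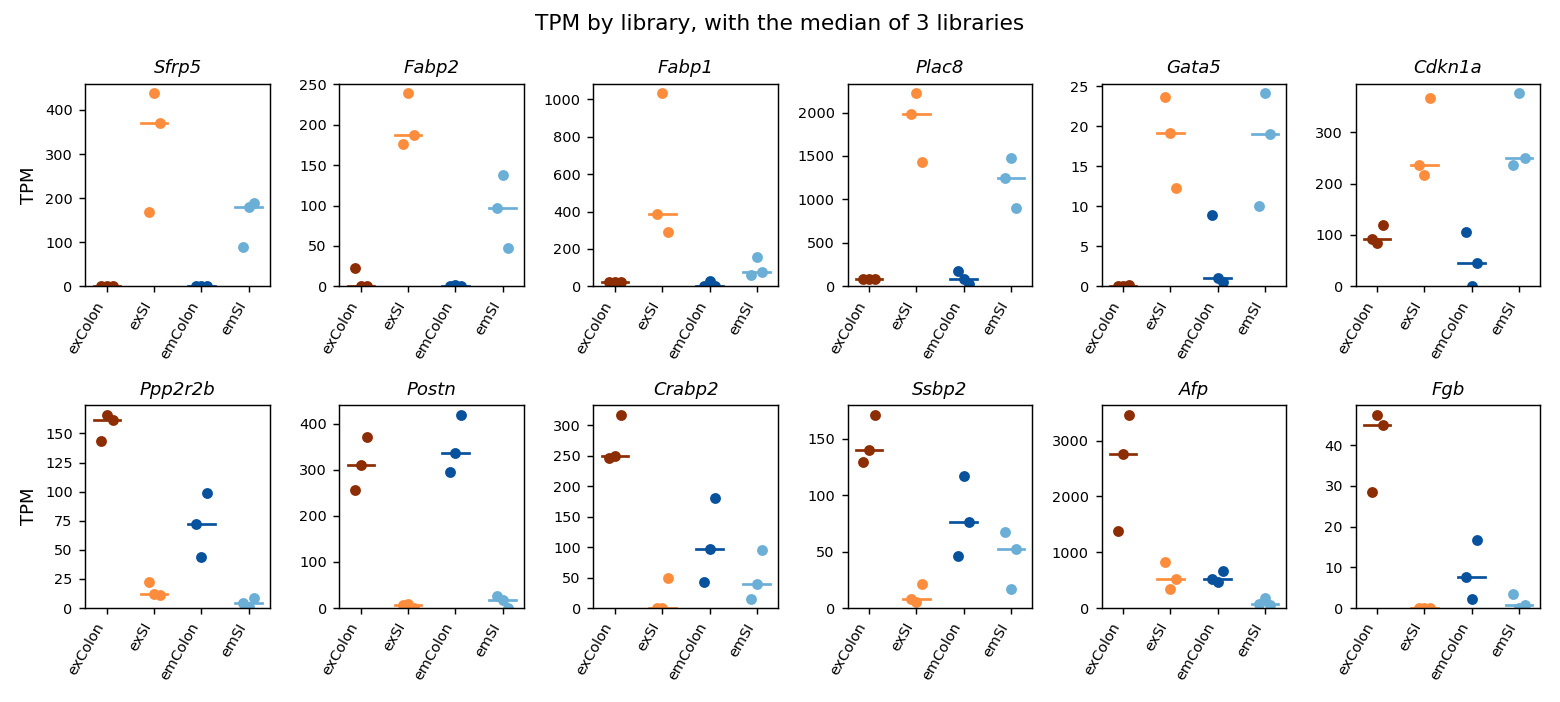
TPM of 12 genes in each E13.5 library, with points for libraries and a bar for the median of 3 libraries in exColon, exSI, emColon and emSI on a linear axis. Genes of the upper row are lower in exColon than in exSI (Sfrp5 0 against 169 to 438 TPM) and those of the lower row are higher (Postn 256 to 372 against 0 to 9.24 TPM).

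The 25 genes higher in exColon included matrix and surface proteins. Postn, the matricellular protein periostin at chr3:54361109-54391037, was at 256, 311 and 372 TPM in exColon and 6.87, 9.24 and 0 TPM in exSI (6.17 ± 0.73, adjusted p = 0.0038). It was called without any 1 of the 6 libraries. Of the 15 mesenchyme markers, 6 exceeded 1 TPM in at least 1 exColon library and 2 in exSI, and the list summed to 21.6 to 67.1 TPM in exColon and 5.90 to 53.7 TPM in exSI. The defining collagens Col1a1 and Col3a1 were at or near 0 in all 6 libraries. The part of mesenchymal cells in the difference of Postn was not tested. Ly6a, which encodes the surface protein SCA-1 and has close paralogues, was at 21.9, 231 and 57.4 TPM in exColon and at 0 in exSI (adjusted p = 0.015). Ssbp2, a cofactor of LIM-domain transcription complexes, was at 129.7, 139.8 and 171 TPM against 7.63, 5.45 and 21.6 TPM (3.77 ± 0.49, adjusted p = 0.0082). Ppp2r2b, a regulatory subunit of protein phosphatase 2A, was at 143, 166 and 162 TPM against 22.6, 11.9 and 11.3 TPM (3.34 ± 0.39, adjusted p = 0.0034). Car14, a membrane carbonic anhydrase, was at 76.5, 91.4 and 319 TPM against 15.3, 1.77 and 8.74 TPM (4.12 ± 0.71, adjusted p = 0.027). Entpd3, an ectonucleotidase, differed by 4.53 ± 0.79 (adjusted p = 0.027), Gsn, the actin-severing protein gelsolin, by 4.52 ± 0.74 (adjusted p = 0.024), and Limch1, an actomyosin regulator, by 3.76 ± 0.74 (adjusted p = 0.043), where the calls of Entpd3 and Limch1 did not hold with any 1 library left out. Fstl4 was at 26.0, 40.6 and 6.86 TPM in exColon and 0 in exSI (adjusted p = 0.04), with the same loss. Anxa1, an annexin also abundant in squamous epithelium, was at 256, 105 and 61.9 TPM against 16.3, 0.704 and 1.16 TPM (4.91 ± 0.86, adjusted p = 0.027). Its highest value was in exColon 1, the library with raised surface ectoderm markers, and without that library the difference was 4.35 with an adjusted p of 0.1. The call of Anxa1 was also lost without exSI 2 (adjusted p = 0.12) or without exSI 3 (adjusted p = 0.061). The part of surface ectoderm cells in the difference of Anxa1 was not tested.

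A list of serum and transport proteins of the visceral endoderm had 26 tested members. Of these, 3 were called higher in exColon and 1 lower, beside 0.219% and 0.473% of all genes tested, and 22 were not called. Differences were above 0 for 14 and below 0 for 12, and the median was 0.10, beside 0.08 over all genes. Afp, alpha-fetoprotein, was at 1374, 2761 and 3462 TPM in exColon against 832, 345 and 512 TPM in exSI (2.16 ± 0.35, adjusted p = 0.024), a call that was lost without exSI 2 or without exSI 3. Fgb, the fibrinogen beta chain, was at 28.4, 47.4 and 44.9 TPM in exColon and at 0 in exSI (adjusted p = 0.0099). Spink1, a secreted trypsin inhibitor, was at 419, 619.6 and 692 TPM against 112, 114 and 245 TPM (1.94 ± 0.32, adjusted p = 0.024). As in every called gene, the groups of these 3 did not overlap. S100g, a calcium-binding protein of absorptive cells, went the other way, at 176, 62.3 and 77.9 TPM in exColon and 412, 833 and 336 TPM in exSI (-2.35 ± 0.41, adjusted p = 0.027). The liver list, which contains Afp and Fgb, summed to 2147 to 5021 TPM in exColon and 1223 to 1841 TPM in exSI. All 9 of its genes exceeded 1 TPM in at least 1 exColon library, against 7 in exSI, where the other 2 were at 0 in all libraries. Alb, the defining gene of hepatocytes, was at 4.67, 0 and 0 TPM in exColon and 5.95, 0 and 0 TPM in exSI. The part of liver cells in these differences was not tested. The yolk sac list summed to 1647 to 4133 TPM against 1180 to 1661 TPM, and overlapped between the organs. Itih2, which binds hyaluronan in serum and matrix and is not on the list, was at 49.3, 39.8 and 43.5 TPM in exColon and 0, 0 and 1.05 TPM in exSI (5.15 ± 0.72, adjusted p = 0.013), and Akr1d1, a steroid reductase, was at 35.9, 11.6 and 41.9 TPM against 0.733, 0 and 0.701 TPM (4.24 ± 0.80, adjusted p = 0.035, a call lost with any 1 library left out). Origin genes of the extraembryonic gut were not called between the organs (0 of 18, median 0.26), with Rhox5 at 1307, 844 and 793 TPM in exColon and 1186, 977 and 1548 TPM in exSI and Trap1a at 852, 672 and 694 TPM against 626, 535 and 637 TPM. Neither were 23 cholesterol synthesis genes (median 0.07) or 5 tested tail bud genes (median 0.85), beside 0.693% of all genes tested. All 5 tail bud genes had a difference above 0, and 3 had groups that did not overlap, against 15.8% of all genes.

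To ask how far the organ difference of extraembryonic cells was shared by the embryonic lineage, the same test was run on emColon against emSI. This comparison shares no library with the first, but may share embryos with it. The paper took its GFP+ control from organs of lineage-traced embryos with the extraembryonic p53 KO, and the labels do not name the embryo. Agreement between the lineages is therefore not from material known to be independent. In emColon against emSI 53 of 11239 genes were called (0.472%), 25 higher in colon (0.222%) and 28 lower (0.249%). Of the 79 genes called in the extraembryonic comparison, 72 passed the filter in the em libraries and 69 had the same direction there, while the directions matched for 53.8% of the 10713 genes tested in both. The count called in both was 16, and all 16 had the same direction. Those higher in colon in both lineages included Postn, Ly6a, Ppp2r2b, Afp and Spink1, and those lower were Sfrp5, Fabp2, Plac8, Lgals2, Cpa1, Nepn, Tm4sf4, Tm4sf5, Tmem215 and Oat. Sfrp5 was at 0 in the 3 emColon libraries and at 88.3, 179.9 and 189.7 TPM in emSI (adjusted p = 0.00093). Postn was at 295, 336 and 419 TPM in emColon against 26.1, 17.6 and 0 TPM in emSI (5.45 ± 0.99, adjusted p = 0.048). Sfrp5 and Postn, given here because they were called in both comparisons, had the same order of the organs in each lineage. Plac8 was at 176, 83.0 and 22.0 TPM in emColon and 1248, 1473 and 896 TPM in emSI (-4.08 ± 0.58, adjusted p = 0.014). Afp was lower overall in the em libraries, at 517, 465 and 661 TPM in emColon and 71.8, 180.2 and 56.7 TPM in emSI, but its organ difference was 2.57 ± 0.38 (adjusted p = 0.016). Over the 23 genes higher in exColon that were tested in em, the median difference was 3.77 in ex and 2.04 in em, and over the 49 lower genes it was -3.45 and -2.43. These genes were chosen by their size in ex, and the difference between the medians was not tested.

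**Figure D4:**
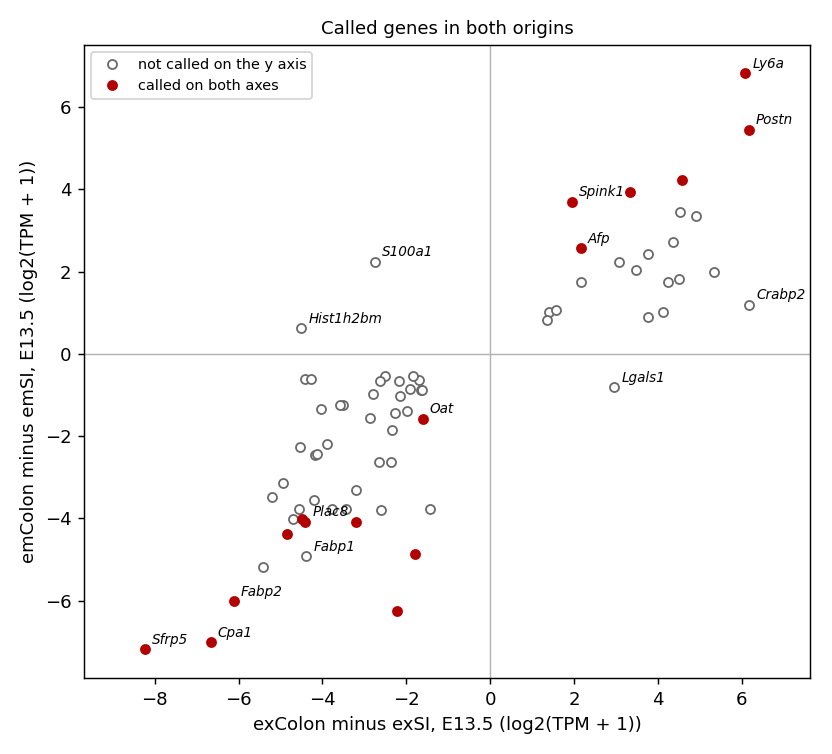
Differences in mean log2(TPM + 1) between colon and small intestine for the 72 called genes also tested in the em libraries, with the ex comparison on the x axis and the em comparison on the y axis. Filled points are the 16 genes called in both, all in the lower left or upper right part of the plot, and 3 open points, S100a1, Hist1h2bm and Lgals1, have opposite signs.

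Of the 53 genes called in the embryonic comparison, 45 were tested in ex, 39 had the same direction there and 16 were called. The other 8 were below the filter in ex, among them the endocrine genes Chgb, Resp18, G6pc2 and Sstr5 and the pancreatic zymogen gene Ctrb1. Clps, pancreatic colipase, was at 101, 377 and 321 TPM in emSI but at 12.6, 2.02 and 16.9 TPM in exSI, and at 0 in both colons. Of the 72 called genes tested in em, 3 had an opposite sign there, namely S100a1, Hist1h2bm and Lgals1. Dmbt1 and C130026I21Rik also differed in sign, by less than 0.5 in em, but were below the filter there. S100a1, a calcium-binding protein, was at 10.2, 39.6 and 15.1 TPM in exColon and 86.1, 152 and 166 TPM in exSI (-2.75 ± 0.50, adjusted p = 0.03) but at 64.1, 98.6 and 39.7 TPM in emColon and 22.5, 2.29 and 31.2 TPM in emSI (2.24 ± 0.79, adjusted p = 0.35). Lgals1 was at 81.3, 112 and 78.8 TPM in emColon and 802, 209.8 and 22.7 TPM in emSI, the highest of these in emSI 1, the library whose mesenchyme markers summed to 1081 TPM with Acta2 at 423 TPM. The part of mesenchymal cells in the em value of Lgals1 was not tested. Some called genes were near absent from the embryonic libraries. Wfdc10 was at 0, 2.25 and 0 TPM in exColon and 43.6, 18.0 and 30.4 TPM in exSI (-4.33 ± 0.80, adjusted p = 0.034) and at 0 in all 6 em libraries, and C130026I21Rik was at 8.02 to 19.11 TPM in exColon and at most 0.993 TPM in any exSI or em library. Dmbt1, a mucosal scavenger protein, was at 0 in exColon and 7.58, 22.3 and 22.0 TPM in exSI. In the em libraries Dmbt1 was uneven, at 0.108, 7.69 and 0 TPM in emColon and 0.0007, 8.26 and 0 TPM in emSI, so that its highest em value was above exSI 1.

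Whether the organ difference itself depended on lineage was tested as an interaction over the 12 libraries of E13.5. Of 12483 genes, 2 were called (0.016%), and 1038 had an unadjusted p under 0.05. Neither was among the 79 genes, for which the smallest adjusted p of the interaction was 0.16. Serpinb1a, an inhibitor of neutrophil proteases, was at 67.1, 173 and 66.2 TPM in exColon and 121, 239 and 149.7 TPM in exSI, which overlapped, but at 257, 272 and 195 TPM in emColon and 41.5, 30.7 and 25.6 TPM in emSI (interaction -3.68 ± 0.54, adjusted p = 0.039). Tnni1, the slow skeletal form of troponin I, was at 0, 2.63 and 0 TPM in exColon, 8.86, 25.5 and 21.0 TPM in exSI, 45.0, 57.8 and 34.2 TPM in emColon and 4.98, 3.42 and 4.98 TPM in emSI (interaction -6.62 ± 0.99, adjusted p = 0.039). The order of the organs was thus opposite between lineages for Tnni1, with no overlap within either. Both calls were lost on leaving out any 1 library other than exColon 2 or exSI 1.

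The organ differences of E13.5 were also set beside those of the earlier extraembryonic gut, exHindgut against exMidgut at E9.5, where 1391 of 12331 genes were called (11.3%), 555 of them higher in exHindgut (4.5%) and 836 lower (6.78%). Of the 54 genes lower in exColon, 39 were tested at E9.5, 29 had the same direction, and 25 were called, 22 of them in the same direction. These included Lgals2, which was at 0 in exHindgut and 146, 264, 373 and 159.8 TPM in exMidgut (adjusted p = 4.8e-09), Nepn at 0, 0, 3.38 and 6.81 TPM against 1456, 1037, 2037 and 2361 TPM (-9.41 ± 0.55, adjusted p = 1.5e-07), and Enpp1 at 3.58, 0.983, 3.60 and 1.86 TPM against 38.6, 46.4, 81.1 and 46.5 TPM (-3.97 ± 0.36, adjusted p = 6.3e-06). For Lgals2, Nepn and Enpp1 the lower group was exHindgut at E9.5 and exColon at E13.5. The labels do not say which E9.5 region the cells of each E13.5 organ came from. Over all genes below 0 in exColon against exSI, 50.2% had the same direction at E9.5 and 10.5% were called there. The genes higher in exColon behaved differently. All 25 were tested at E9.5, 4 had the same direction, and 11 were called, 10 of them in the opposite direction. Over all genes above 0 in exColon against exSI, 49.2% had the same direction at E9.5 and 9.35% were called there.

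Afp was at 22.1, 109, 437 and 176 TPM in exHindgut and 4641, 7408, 8162 and 6142 TPM in exMidgut, a difference of -5.77 ± 0.60 (adjusted p = 1.8e-05), and at E13.5 its higher level was in the colon. Fgb was at 0, 0.556, 2.77 and 0.617 TPM against 39.4, 75.5, 66.2 and 69.2 TPM (-5.14 ± 0.42, adjusted p = 2e-06), and Spink1 was at 11.5, 46.0, 101 and 96.8 TPM against 879.8, 1746, 1439 and 1008 TPM (-4.64 ± 0.50, adjusted p = 2.3e-05). The 3 serum protein genes that were higher in exColon had therefore been lower in the hindgut. This was not particular to them. Of 30 members of the visceral endoderm list tested at E9.5, 25 were called lower in exHindgut and none higher, with a median difference of -4.27. Ppp2r2b was at 0, 0.153, 0 and 11.7 TPM in exHindgut and 37.9, 40.0, 45.3 and 37.8 TPM in exMidgut (-4.39 ± 0.67, adjusted p = 0.00045). The other genes called in opposite directions were Igfbp5, Gsn, Akr1d1, Entpd3, Lgals1 and Mgst2. Ly6a alone among the 25 was called in the same direction, at 50.9, 79.9, 8.32 and 43.0 TPM in exHindgut and 1.5, 1.58, 5.16 and 3.34 TPM in exMidgut (3.32 ± 0.57, adjusted p = 0.0011). Cdkn1a was the reverse of E13.5, at 586, 701, 489.6 and 541 TPM in exHindgut and 238, 225, 378 and 279 TPM in exMidgut (1.06 ± 0.16, adjusted p = 0.00034). The E9.5 cells were labelled WT, so stage and genotype cannot be told apart for any of these genes. The difference between the stages was not itself tested.

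**Figure D5:**
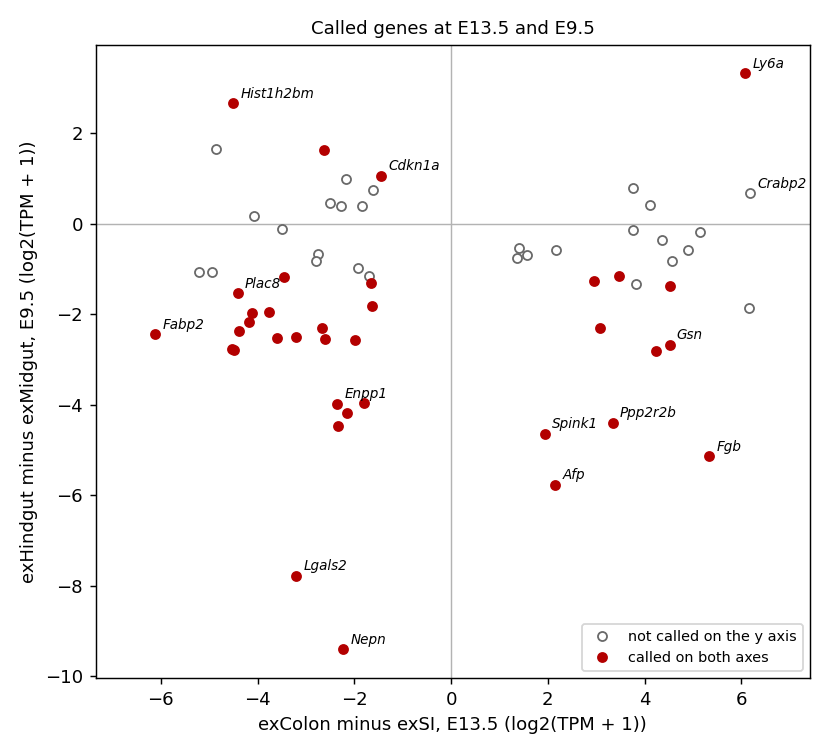
Differences in mean log2(TPM + 1) for the 64 called genes tested at both stages, with exColon minus exSI at E13.5 on the x axis and exHindgut minus exMidgut at E9.5 on the y axis. Filled points are also called at E9.5, and on the right side 10 of 11 lie below 0, with Afp at -5.77, while Ly6a lies above.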

How the data were processed

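RNA was measured by low-input bulk RNA-seq in the 3 exColon and 3 exSI libraries, with emColon, emSI, exHindgut and exMidgut for comparison. The tools named in the submitters' processing notes are cutadapt 4.1 for trimming, STAR 2.7.9a for alignment to mm10 with GFP and mCherry added, and StringTie 2.0.6 for quantification, with which the authors made and deposited TPM, FPKM and coverage per gene. TPM and FPKM, as deposited, are normalized values, so no count test was possible, and the depth was estimated from the ratio of deposited coverage to FPKM. TPM were summed per gene identifier. Protein-coding genes off the Y chromosome above 1 TPM in at least 3 libraries (4 at E9.5) were tested as log2(TPM + 1), with a pseudocount of 1, by limma 3.58.1 in R 4.3.3 with a trended variance and Benjamini-Hochberg adjustment, each comparison being fitted on its own libraries and the interaction on all 12 of E13.5. The interaction was called by its adjusted p alone. The script was tested on simulated data.

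Named singly were the 15 largest called differences in each direction, called members of 19 pathway lists (up to 6) with up to 3 of their most abundant uncalled members, Hox genes, interaction calls, genes differing in sign between lineages, reporters and Trp53. Other genes (such as Plac8's fellow stable calls Ppp2r2b and Lgals4, or Gata4, Pmaip1, Lgals2 and the genes given for E9.5) were chosen after their values were seen. The members and lists were chosen with earlier results of these data known. The 15 marker lists served as a check of the sorted cells. Promoters are from RefSeq on GRCm38.p6, the same assembly as mm10. The alternatives were another pseudocount (0.1), no filter on low values, quantile and median-ratio scaling, FPKM, no variance trend, all gene types, a replicate block, a fit over 12 libraries and leaving out each library. Some genes that the rule names are not reported here.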

Additional observations from a re-analysis of the deposited data

Results flagged for a closer look

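Among 48 groups of 4 E9.5 libraries examined, 1 library lay far from the other 3 in 3 groups, where chance flags about 1 in 20. These were Ppp2r2b in exHindgut 4 (11.72 TPM, others at most 0.153 TPM), Akr1d1 in exHindgut 4 (1.093 TPM, others at 0) and Gata5 in exHindgut 3 (2.146 TPM, others at most 0.068 TPM). Groups of 3 libraries were not examined in this way.

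The organ difference differed between the lineages in the test of the interaction for 2 genes, Tnni1 (-6.62 on the log2 scale) and Serpinb1a (-3.68). Tnni1 was higher in exSI than in exColon and lower in emSI than in emColon, without overlap. For Serpinb1a the colon was the higher organ in the embryonic lineage (195 to 272 against 25.6 to 41.5 TPM), and the extraembryonic groups overlapped.

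For 13 genes exHindgut minus exMidgut at E9.5 and exColon minus exSI at E13.5 were called in opposite directions. At E9.5, exHindgut minus exMidgut was -5.77 for Afp, -5.14 for Fgb, -4.64 for Spink1, -4.39 for Ppp2r2b, -2.82 for Akr1d1, -2.67 for Gsn, -2.31 for Mgst2, -1.38 for Entpd3, -1.26 for Lgals1 and -1.15 for Igfbp5, all of them higher in exColon than in exSI at E13.5. It was 1.06 for Cdkn1a, 1.63 for Hist1h2ab and 2.66 for Hist1h2bm, all lower in exColon. The difference between the stages was not tested, and stage cannot be told apart from genotype here.

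The Y-linked gene Eif2s3y, left out of the tests, was at 40.51 TPM or more in all 6 ex libraries and at 0 in all 6 em libraries, a further difference between the lineages besides genotype and strain.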

How the results depend on the processing

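The count of 79 calls depended on the treatment of low values and on single libraries. It was 11 with a pseudocount of 0.1 and 2 with no filter, where 1164 and 1310 genes had an unadjusted p under 0.05. It stayed between 66 and 111 with quantile or median-ratio scaling, FPKM, no variance trend, all gene types, the replicate block or a fit over 12 libraries, but the 66 calls without the trend held only 37 of the 79. The share of calls higher in exColon was 31.6%, 42.3% (47 of 111) in the fit over 12 libraries, 51.5% without the trend, and 63.6%, 57.1% and 67.4% without exSI 1, 2 and 3, against 15.1% to 25.5% without an exColon library. Leaving out 1 library gave 7 to 71 calls, with 51 without exColon 1, 11 without exSI 1, 7 without exSI 2 and 43 without exSI 3. Without any 1 exSI library, 14 of the 79 genes no longer passed the filter, since they were above 1 TPM in exSI alone. Plac8 was called under all 15 alternatives, Ssbp2, Ppp2r2b, Lgals4 and Fabp1 under 14, and these 5 and Postn without any 1 library. No called gene changed sign, and the call was lost in 447 of 1116 gene-by-setting values. Of the uncalled genes, Gata4 passed in 6 alternatives. Cause beyond the filter was not tested. The 53 calls of the embryonic comparison became 3 with no filter, 92 in the fit over 12 libraries and 7 to 36 with 1 library left out (34 without emColon 1, 32 without emColon 3, 7, 9 and 22 without emSI 1, 2 and 3). The 2 interaction calls became 0 with a pseudocount of 0.1 (993 genes at an unadjusted p under 0.05), 14 with no filter, 6 without the trend and 0 to 3 with 1 library left out. The 1391 calls at E9.5 stayed between 1055 and 1482. Median-ratio scaling moved the median difference of all genes from 0.08 to -0.021, and quantile scaling that of the interaction from 0.24 to 0.025. The labels do not tie replicate numbers to embryos, so same-numbered libraries were not taken as pairs. The deviations of same-numbered exColon and exSI libraries had correlations of 0.0052, 0.0294 and 0.0369, against -0.0438 to 0.0109 for other numbers. Same-numbered exSI and emSI libraries had correlations of 0.0486, 0.0635 and 0.0493, against -0.0404 to -0.0103 for other numbers. Same-numbered exColon and emColon libraries had 0.0162, 0.0273 and 0.0167, against -0.0183 to 0.004. Whether the numbers mark embryos was not tested. With the replicate block, 99 genes were called between exColon and exSI (72 of the 79), 1380 at E9.5 and 3 for the interaction.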

Other observations

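Among gene types other than protein-coding, 4 genes passed the same thresholds between exColon and exSI when all types were tested. H19, an imprinted long non-coding RNA of foetal endoderm, was at 676, 365 and 429.9 TPM in exColon and 1065, 1240 and 1189 TPM in exSI (-1.30, limma adjusted p = 0.032), and at 53.5 TPM or less in the em libraries of both organs. Foxd2os was at 47.5, 54 and 49.1 TPM in exColon and 2.98, 0 and 0 TPM in exSI (5.01, adjusted p = 0.024). It was at 110.9, 48.1 and 133 TPM in emColon and at most 0.019 TPM in emSI. As strand was not known to be kept, its reads cannot be told apart from those of an overlapping partner. 9130024F11Rik was at 37.3, 33.3 and 48.6 TPM in exColon and at most 1.77 TPM in exSI (4.79, adjusted p = 0.024). Gm35696 was at 0 in exColon and emColon, at 27.3, 33.3 and 12.8 TPM in exSI and at 13.9, 8.29 and 6.17 TPM in emSI (adjusted p = 0.028).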
